A study of Mus musculus with 12 samples.

Results

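The p53 target genes are 32 genes of the p53 pathway, read here out of a table of 23893 genes in mouse cortical neuron cultures that were exposed to the topoisomerase 1 (TOP1) inhibitor topotecan, carried a deletion of Top1, or both. The list holds p53 itself with its feedback regulators (4 genes), genes of cell-cycle arrest (7 genes), genes of cell death (15 genes), and genes of DNA repair and redox control (6 genes), and all 32 symbols were found in the table. The list was chosen by measured values of these libraries: Cdkn1a and Phlda3, 2 known p53 targets, had appeared among the genes higher in the Top1-deleted cultures that also received topotecan, and the other members were added from general knowledge of the pathway. For the comparisons of those cultures with either vehicle group, values and counts of calls are therefore given as a description, from which nothing is read. Wherever those cultures enter another comparison, no p-value is given for Cdkn1a and Phlda3, and counts are also given without them or are named as including them. Leaving these 2 genes out does not undo the choice, since the pathway was taken up for levels in the same libraries.

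The study asked whether topotecan alters neuronal transcription through loss of TOP1 or through TOP1 trapped on DNA. Cortical neurons of E13.5 to E15.5 embryos (strain label C57BL6, C57BL6/J in the growth protocol, Top1 fl/fl by the study's methods) were transduced on day in vitro (DIV) 3 with a lentivirus driven by the CaMKIIα promoter, which is active in excitatory neurons, so that the deletion was aimed at neurons that took up the virus. Virus encoding tdTomato alone gave the cultures called wild-type (WT), and virus encoding tdTomato-P2A-CRE gave the Top1 conditional knockout (Top1 cKO). From DIV 15, for 3 days, both received vehicle (0.003% DMSO) or 300 nM topotecan in the same vehicle. The WT cultures thus form the groups WT-Veh and WT-Topot, and the knockouts the groups named Top1 cKO-Veh and Top1 cKO-Topot. All 4 groups have 3 libraries, numbered 1 to 3, and values below are listed in that order.

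p53 is a transcription factor that is held low by MDM2, the ubiquitin ligase that marks it for degradation, and is stabilised after DNA breaks. It then binds a response element near its targets and raises inhibitors of the cell cycle, mediators of apoptosis, repair enzymes and, as negative feedback, Mdm2 itself. Because its activity is set mainly at the level of the protein, the level of its own mRNA says little about its activity, whereas its target mRNAs are the usual readout. Topotecan holds TOP1 on the DNA strand it has cut, and such cleavage complexes are a known source of DNA damage, also in neurons that no longer divide.

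Counts were scaled to CPM (each gene's count relative to the library total) with trimmed-mean (TMM) factors. Library totals ranged from 1730164 to 4583777 counts, and Top1 itself lay between 117 and 163 CPM in the 6 WT libraries and between 27.1 and 44 CPM in the 6 Top1 cKO libraries, with no overlap. All 32 members averaged at least 1 CPM, as did 13720 of the 23893 genes, and percentages of all genes given below are over those 13720. All 10 neuronal markers were present, and in WT cells their summed level was 6850 to 9370 CPM with vehicle and 5670 to 6410 CPM with topotecan, in Top1 cKO cells 7590 to 8070 and 6540 to 7220 CPM. The 7 astrocyte markers, all detected, summed to 1270 to 3280 and 618 to 1300 CPM in WT and to 1300 to 3680 and 624 to 1720 CPM in Top1 cKO cells, and the 5 progenitor markers, Nes and Vim among them, to 196 to 527 and 549 to 958 CPM and to 244 to 607 and 436 to 943 CPM. Single markers of a list did not all move one way. With topotecan, in all 3 replicate numbers of WT cells, 6 neuronal markers were lower (Syt1 from 1460 to 1920 CPM to 223 to 347 CPM) and 3 higher (Tubb3, Slc17a7 and Slc17a6), 4 of 7 astrocyte markers were lower and 0 higher, and of the 5 progenitor markers Nes and Vim were higher while Sox2, Pax6 and Hes5 kept no common direction. In Top1 cKO cells 4 neuronal markers were lower and 2 higher, the same 4 astrocyte markers (Gfap, Aqp4, Slc1a3 and Gja1) were lower, and Nes and Vim were higher and Hes5 lower. The part of these markers in the results below was not tested. In bulk RNA, fewer cells of a type and less RNA per cell cannot be told apart. The 9 markers of proliferating cells summed to 21.4 to 45.9 CPM over all libraries, most of it Pcna, with Mki67 between 0 and 3.07 CPM, and the 5 microglial markers reached at most 5.14 CPM.

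A few members carry a close match to the p53 response element beside their 5′ end, and these are shown because Cdkn1a and Ccng1, the most abundant arrest genes of the list, are among them. The consensus of the p53 response element is a pair of decamers, each with a core of C, 2 bases that are A or T, and G, between 3 purines and 3 pyrimidines, and it reads the same on both strands. Every annotated protein-coding gene with a single record was searched from 2500 bases before to 2500 bases after its 5′ end, allowing at most 1 mismatch, none of it at the C and G of the cores, and no spacer. Such a match was found beside 5 of 32 members (15.6%) and beside 170 of 22100 genes (0.769%). A match is a description of the letters, not a site shown to be bound, and since many members were first named as p53 targets partly through such elements the share is no independent evidence. The 6 matches follow with the 4 core bases of each decamer in capitals, on the strand of the gene, in mm9 coordinates.
Cdkn1a, upstream of the gene: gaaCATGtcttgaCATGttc
Ccng1, upstream of the gene: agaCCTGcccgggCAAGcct
Ccng1, intron: acgCAAGcccgggCTAGtct
Psrc1, intron: gggCATGttgaggCATGccc
Zmat3, intron: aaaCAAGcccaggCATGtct
Gdf15, non-coding part of an exon: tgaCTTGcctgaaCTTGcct

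The Cdkn1a match lay at chr17:29227873-29227892, centred 42 bases before the annotated 5′ end. Those of Ccng1 lay at chr11:40568964-40568983, 161 bases before the 5′ end, and at chr11:40568438-40568457, 365 bases into the gene. The Psrc1 match was at chr3:108187574-108187593, 826 bases into the gene, and that of Gdf15 at chr8:73155865-73155884, 480 bases in. Zmat3 alone among the members matched without a mismatch, at chr3:32263253-32263272 and 1337 bases into the gene, as did 19 of the 22100 genes (0.086%).

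**Figure D1:**
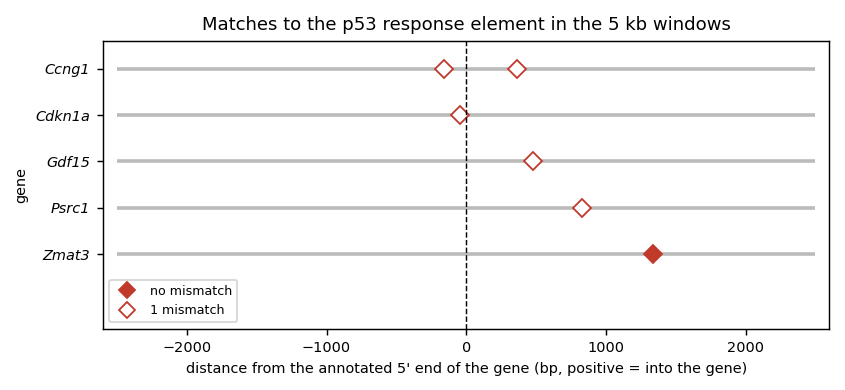
Position of each match to the p53 response element relative to the annotated 5′ end of its gene (horizontal axis, in bases, positive into the gene) for the 5 members with a match. Matches lay between 161 bases before and 1337 bases after the 5′ end, and the filled symbol marks the match of Zmat3 without a mismatch.

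Per kilobase of annotated exon, the levels of the members spanned a wide range in WT-Veh cultures. Cdkn1a, which encodes the cyclin-dependent kinase inhibitor p21, and Ccng1, which encodes cyclin G1, stood highest with mean levels of 103 and 102 CPM per exon kb, followed by Ei24 with 69.4, Phlda3 with 40.5 and Zmat3 with 38.8 CPM per exon kb. Trp53 had a level of 2.46 CPM per exon kb, and the death receptor gene Tnfrsf10b was lowest with 1.09 CPM per exon kb. All 32 genes span less than 100 kb, with a median span of 17.3 kb and a range of 2.35 to 97.9 kb.

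Few members passed the threshold under topotecan alone. In WT-Topot against WT-Veh, edgeR's quasi-likelihood test called 2 members higher and 1 lower at a false discovery rate (FDR) of 0.01, where 1.19% of all genes were called higher and 3.56% lower. The genes that rose were Apaf1 and Trp53inp1, and the gene that fell was Plk3. At an unadjusted p under 0.05 in that test there were 8 higher and 2 lower, beside 9.65% and 11.7% of all genes. The fold changes leaned upward across the list: 27 of 32 were above 0, and the median log2 fold change was 0.31, beside 0.03 over all genes. With the replicate number as a block (same-numbered libraries deviated together), 7 members were called higher (5.62% of all genes) and 1 lower (8.71%), the additional members being Ccng1, Psrc1, Perp, Phlda3 and Sesn1. The count without the block rested on single libraries: 1 member was called without WT-Topot replicate 2, and 5 without WT-Veh replicate 1.

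Deletion of Top1 alone gave fewer calls. In Top1 cKO-Veh against WT-Veh, edgeR called 0 members, where 0.0802% of all genes were called higher and 0.219% lower; DESeq2 and edgeR's exact test also called 0, and at an unadjusted p under 0.05 there were 3 higher and 1 lower, beside 6.54% and 7.66% of all genes. The replicate block called Btg2, Psrc1, Trp53inp1 and Zmat3 higher and Plk3 lower, 4 and 1 members, beside 4.53% and 5.15% of all genes. The median log2 fold change was 0.10, beside 0 over all genes, and became 0.32 without WT-Veh replicate 1.

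The genotypes were next compared under topotecan. In Top1 cKO-Topot against WT-Topot, 4 of the 32 members passed the threshold, 3 higher and 1 lower, where 2.55% and 1.79% of all genes did. Cdkn1a, chosen for its level in Top1 cKO-Topot, is 1 of the 3 and says nothing further. Without Cdkn1a and Phlda3, 2 of 30 members were called higher (Btg2 and Zmat3) and 1 lower (Apaf1), and the median log2 fold change was 0.24 against -0.02 over all genes. This comparison reuses the Top1 cKO-Topot libraries behind the choice, so calls of the other members are not independent of it. With the block, 10 of 32 were called higher and 3 lower, beside 8.02% and 7.08%, and without Cdkn1a and Phlda3 8 of 30 and 3: Ccng1, Ckap2, Psrc1, Pmaip1, Trp53inp1 and Aen joined the higher genes, and Ddb2 and Rrm2b the lower ones. By class, and again without Cdkn1a and Phlda3, 5 of 6 arrest genes lay above 0, with a median of 1.09, and 2 of 6 repair and redox genes, with a median of -0.28. Over all genes 48.2% lay above 0. The 14 death genes had a median of 0.24 and the 4 genes of p53 and its feedback one of 0.32. These 4 comparisons share libraries, so their counts are not independent of each other.

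The interaction, the log2 effect of topotecan in Top1 cKO cells minus that in WT cells, was called for 0 members by edgeR, where 0.692% of all genes were called higher and 0.0656% lower. DESeq2 also called 0, and at an unadjusted p under 0.05 there were 2 higher and 4 lower, beside 7.47% and 5.95% of all genes. The 2 higher members were Plk3 and Cdkn1a, and Cdkn1a counts for nothing here, as it prompted the list. With the block, 2 of 32 members passed the threshold as higher and 1 as lower, beside 4.24% and 2.66% of all genes. Of these Cdkn1a was used in the choice of the list, and without it and Phlda3, 1 of 30 members was called higher (Plk3) and 1 lower (Apaf1). The 6 arrest genes other than Cdkn1a all had an interaction above 0 in the fit without the block, with a median of 0.40, and 4 of the 6 repair and redox genes one below 0, with a median of -0.56. Over all genes 48% lay above 0, with a median of -0.03. Some arrest values were smaller than their SE (Ccng1 0.1, SE 0.289, and Gadd45a 0.22, SE 0.583), and the genes share libraries, so a common sign is not a test. The interaction also uses the Top1 cKO-Topot libraries behind the choice of the list.

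**Figure D2:**
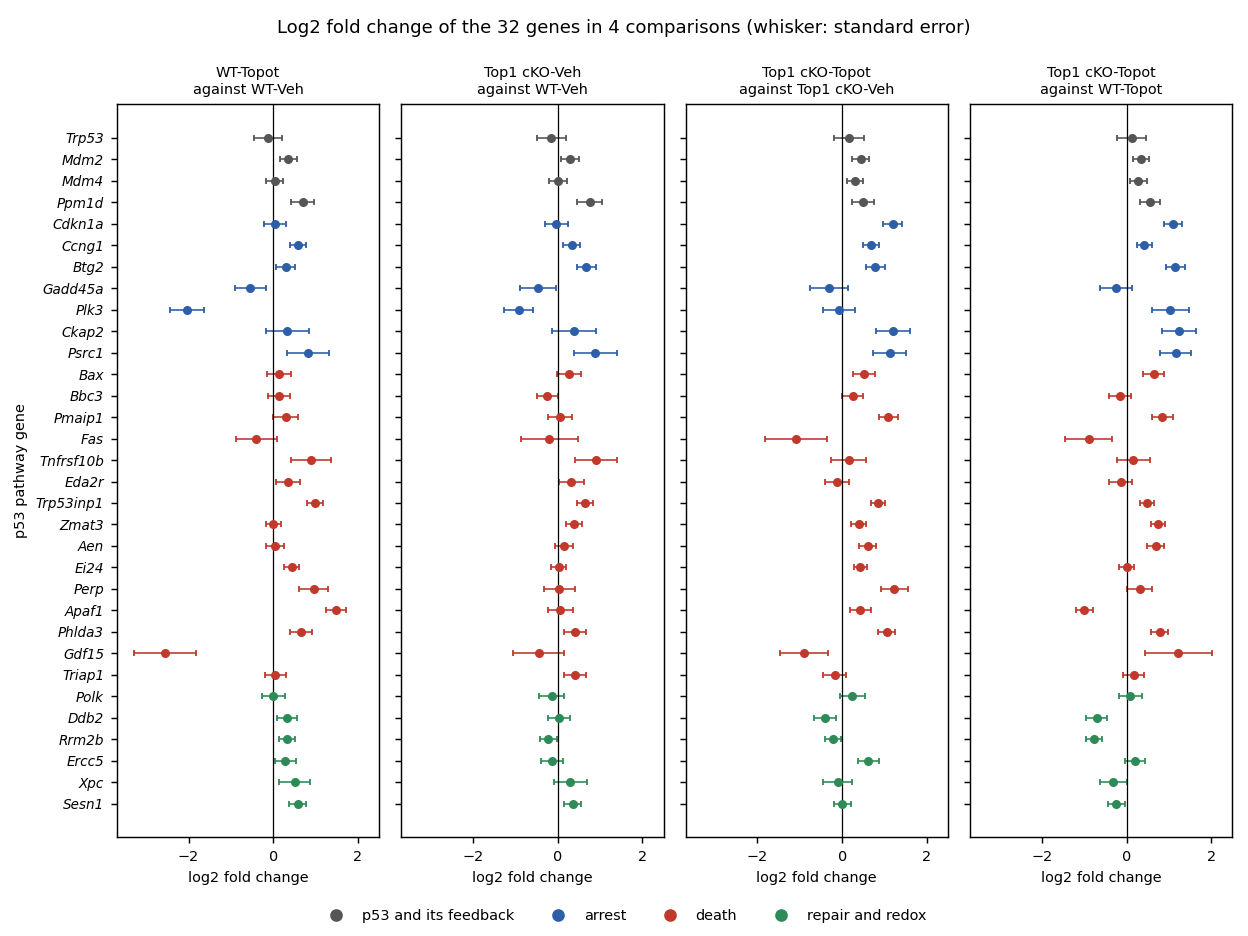
Log2 fold change (horizontal axis) of the 32 members, coloured by class, in 4 comparisons, with the standard error of edgeR's fit as whiskers (3 libraries a group). In WT-Topot against WT-Veh, Apaf1 lies at 1.48 and Plk3 at -2.03, and in Top1 cKO-Topot against WT-Topot most arrest genes lie to the right of 0 while Apaf1, Ddb2 and Rrm2b lie to its left.

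The mRNA of p53 did not differ detectably between any groups. Trp53 was at 11.1, 10.1 and 8.64 CPM in WT-Veh, 9.05, 9.16 and 9.42 CPM in WT-Topot, 11.3, 7.33 and 8.52 CPM in Top1 cKO-Veh, and 13.1, 8.3 and 8.74 CPM in Top1 cKO-Topot. All 4 groups overlapped, and the log2 fold change in WT-Topot against WT-Veh was -0.12 (SE 0.334). These levels rest on 15 to 38 counts a library, which limits the change that could be seen. Mdm2, the feedback ligase, was at 45.9, 55.7 and 60.5 CPM in WT-Veh, 63.7, 73.8 and 67.7 CPM in WT-Topot, 61.4, 58.6 and 76.7 CPM in Top1 cKO-Veh, and 71.3, 90.7 and 101 CPM in Top1 cKO-Topot. Every WT-Topot library lay above every WT-Veh library, but the difference did not pass the test (log2 fold change 0.35, SE 0.201, edgeR adjusted p = 0.539).

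Ppm1d encodes the phosphatase WIP1, which shuts down p53 and checkpoint kinases. Its level was 17.8, 16.7 and 21.9 CPM in WT-Veh, 24.8, 27.5 and 38.1 CPM in WT-Topot, 22.7, 25.9 and 47.1 CPM in Top1 cKO-Veh, and 44.2, 47.2 and 40.2 CPM in Top1 cKO-Topot. All 3 other groups lay above WT-Veh, without passing the test in WT-Topot (log2 fold change 0.69, SE 0.27, adjusted p = 0.217 with edgeR) or in Top1 cKO-Veh (0.75, SE 0.305, adjusted p = 0.436). Mdm4, the MDM2 partner that masks the activation domain of p53, ranged from 42.6 to 61.8 CPM over the 12 libraries and was called in no comparison.

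Cdkn1a, the arrest gene that prompted the list, was at 251, 301 and 131 CPM in WT-Veh, 305, 219 and 179 CPM in WT-Topot, 272, 246 and 151 CPM in Top1 cKO-Veh, and 659, 346 and 510 CPM in Top1 cKO-Topot. The first 3 groups overlapped and the Top1 cKO-Topot libraries all lay above them, which is the pattern that placed it on the list. In comparisons that the choice did not use, Cdkn1a showed no detectable change: the log2 fold change was 0.04 (SE 0.25, edgeR adjusted p = 1) in WT-Topot against WT-Veh and -0.03 (SE 0.27, edgeR adjusted p = 1) in Top1 cKO-Veh against WT-Veh.

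Ccng1 was at 456, 254 and 363 CPM in WT-Veh, 617, 490 and 486 CPM in WT-Topot, 500, 427 and 427 CPM in Top1 cKO-Veh, and 776, 509 and 863 CPM in Top1 cKO-Topot. WT-Topot lay wholly above WT-Veh, with a log2 fold change of 0.58 (SE 0.197), which passed edgeR's test only with the replicate block (adjusted p = 8.64e-06, against 0.128 without). Leaving out WT-Veh replicate 2 lowered the value to 0.37, and leaving out WT-Veh replicate 1 raised it to 0.78. Against WT-Topot, Top1 cKO-Topot stood higher by 0.42 (SE 0.176), again called only with the block (adjusted p = 0.00187, against 0.221), and the value was 0.27 without Top1 cKO-Topot replicate 3.

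Btg2, which encodes an antiproliferative co-regulator of mRNA decay and transcription, was at 35.4, 38.1 and 29.9 CPM in WT-Veh, 46.6, 46.4 and 33 CPM in WT-Topot, 56.7, 62.1 and 45.6 CPM in Top1 cKO-Veh, and 87.6, 70.4 and 124 CPM in Top1 cKO-Topot. Each Top1 cKO library lay above each WT-Veh library. It rose in Top1 cKO-Topot against WT-Topot (log2 fold change 1.15, SE 0.221, edgeR adjusted p = 0.00196), a call lost when low counts were filtered (adjusted p = 0.0103), and in Top1 cKO-Veh against WT-Veh the log2 fold change of 0.67 (SE 0.224) was called only with the block (adjusted p = 0.00418, against 0.266). The change under topotecan in WT cells was 0.29 (SE 0.228, edgeR adjusted p = 0.78).

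Psrc1 and Ckap2 encode microtubule-associated proteins of the mitotic spindle. Psrc1 was at 19.9, 3.51 and 5.18 CPM in WT-Veh, 31.5, 12.3 and 9.42 CPM in WT-Topot, 25.4, 20.6 and 9.02 CPM in Top1 cKO-Veh, and 57, 18.6 and 45.9 CPM in Top1 cKO-Topot. Replicate 1 was the highest library of every group, so the groups overlapped although WT-Topot exceeded WT-Veh in each replicate number. With the block its log2 fold change was 0.99 (SE 0.283, edgeR adjusted p = 0.00805) in WT-Topot against WT-Veh, 1.06 (SE 0.276, adjusted p = 0.003) in Top1 cKO-Veh against WT-Veh, and 1.16 (SE 0.222, adjusted p = 8.06e-05) in Top1 cKO-Topot against WT-Topot, and without it the adjusted p was 0.596, 0.745 and 0.0729. Single libraries weighed on these values in the fit without the block. In WT-Topot against WT-Veh the log2 fold change of 0.82 rose to 2.04 once WT-Veh replicate 1 was left out, and fell to 0.42 with WT-Veh replicate 2 left out and to 0.13 with WT-Topot replicate 1 left out. With one library left out at a time it ranged from 0.49 to 2.10 in Top1 cKO-Veh against WT-Veh and from 0.82 to 1.87 between the topotecan groups.

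Ckap2 was at 6.73, 2.63 and 2.3 CPM in WT-Veh, 5.36, 6.87 and 3 CPM in WT-Topot, 7.43, 5.5 and 3.01 CPM in Top1 cKO-Veh, and 17.5, 8.3 and 11.4 CPM in Top1 cKO-Topot. Only the last group lay apart, above all 9 other libraries, with a log2 fold change against WT-Topot of 1.24 (SE 0.399) that was called with the block (edgeR adjusted p = 0.00606) and not without (0.0772). Beside these spindle genes, the 9 proliferation markers summed to 24.2 to 45.9 CPM in Top1 cKO-Topot and 21.4 to 34.3 CPM in WT-Topot, which overlap, and their part in the result was not tested.

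Plk3, which encodes a stress-responsive polo-like kinase, went the other way. It was at 28.4, 22.4 and 14.4 CPM in WT-Veh, 8.71, 4.87 and 2.14 CPM in WT-Topot, 14.9, 12.4 and 7.01 CPM in Top1 cKO-Veh, and 14.7, 6.97 and 11.4 CPM in Top1 cKO-Topot. WT-Topot lay wholly below WT-Veh and fell by 2.03 on the log2 scale (log2 fold change -2.03, SE 0.402, edgeR adjusted p = 0.00357), a call that was lost without WT-Topot replicate 2 (adjusted p = 0.0103) and when low counts were filtered (adjusted p = 0.0146). In Top1 cKO-Veh against WT-Veh the log2 fold change was -0.92 (SE 0.341), called only with the block (adjusted p = 0.00511, against 0.353). Topotecan did not lower it in Top1 cKO cells in every replicate number, with differences of -0.01, -0.75 and 0.63 on the log2(CPM + 1) scale, and the interaction of 1.96 (SE 0.412) was called with the block (edgeR adjusted p = 0.000844, against 0.137 without). Gadd45a, a growth-arrest gene induced by DNA damage, ranged from 3.51 to 16.7 CPM and was called in no comparison.

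**Figure D3:**
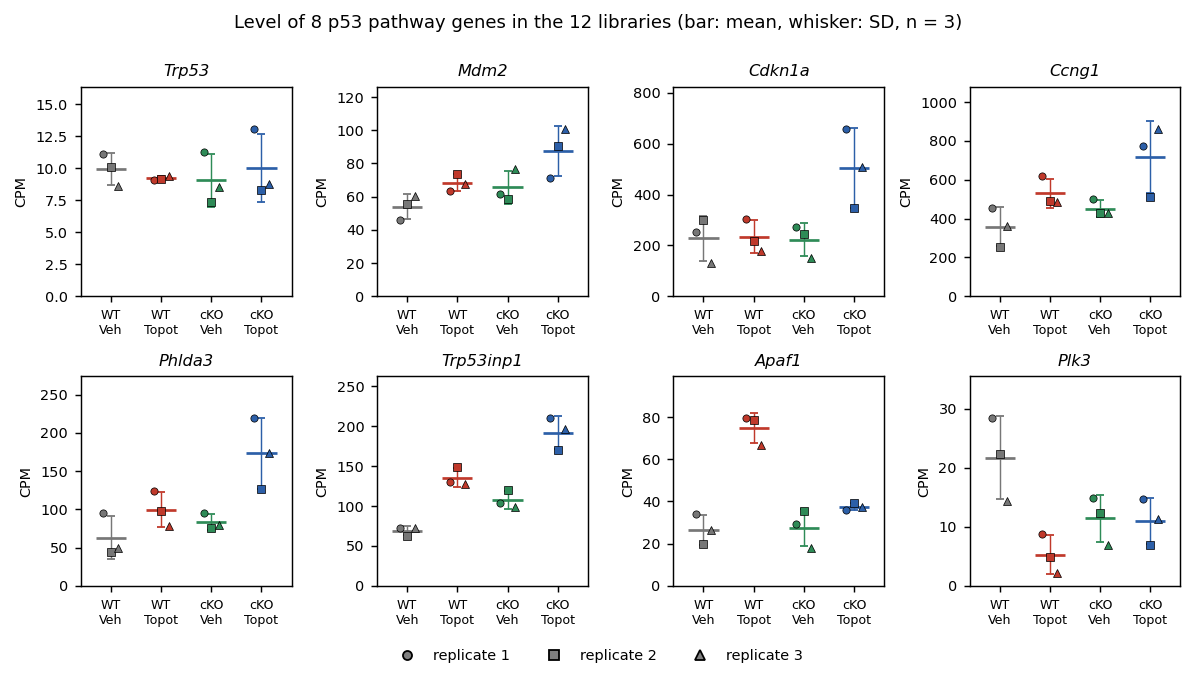
Level in CPM (vertical axis, from 0) of 8 members in the 12 libraries, with the group mean as a bar and the SD as a whisker (3 libraries a group, symbols by replicate number). Cdkn1a is highest in the Top1 cKO-Topot libraries (346 to 659 CPM), Apaf1 in the WT-Topot libraries (66.8 to 79.4 CPM), Plk3 is lowest in WT-Topot (2.14 to 8.71 CPM), and Trp53 overlaps in all groups.

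Of the death genes, Apaf1 had the smallest adjusted p under topotecan alone. It encodes the scaffold of the apoptosome, which activates caspase-9 once cytochrome c leaves the mitochondria. Its level was 33.9, 19.7 and 26.5 CPM in WT-Veh, 79.4, 78.7 and 66.8 CPM in WT-Topot, 29.3, 35.5 and 18 CPM in Top1 cKO-Veh, and 35.8, 39.2 and 37.6 CPM in Top1 cKO-Topot. The 3 WT-Topot libraries stood above all 9 others. Apaf1 rose 2.8-fold in WT-Topot against WT-Veh (log2 fold change 1.48, SE 0.228, edgeR adjusted p = 0.000274), and this was called under all 12 alternatives (largest adjusted p 0.00222).

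Between the topotecan groups, Apaf1 was lower in Top1 cKO cells, with a log2 fold change of -1 (SE 0.199, edgeR adjusted p = 0.00266), a call lost in the fit over all 12 libraries (adjusted p = 0.0173) and without Top1 cKO-Topot replicate 2 (adjusted p = 0.0104). The interaction was -1.06 (SE 0.271) with the block (edgeR adjusted p = 0.00811) and was not called without it (adjusted p = 0.196).

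Trp53inp1, which encodes a nuclear and autophagic cofactor that promotes p53 activity, rose under topotecan. It was at 72.9, 62.2 and 72.6 CPM in WT-Veh, 130, 149 and 128 CPM in WT-Topot, 104, 120 and 99.2 CPM in Top1 cKO-Veh, and 210, 170 and 196 CPM in Top1 cKO-Topot. The groups did not overlap and stood in the order WT-Veh, Top1 cKO-Veh, WT-Topot and Top1 cKO-Topot. The log2 fold change in WT-Topot against WT-Veh was 0.98 (SE 0.185, edgeR adjusted p = 0.00226), and the call was lost without WT-Veh replicate 2 (adjusted p = 0.0119) and without WT-Topot replicate 2 (adjusted p = 0.0139). The difference of 0.64 (SE 0.19) in Top1 cKO-Veh against WT-Veh and that of 0.49 (SE 0.168) in Top1 cKO-Topot against WT-Topot were called only with the block (edgeR adjusted p = 0.000387 and 0.00236, against 0.183 and 0.106). The interaction was -0.15 (SE 0.23, edgeR adjusted p = 1), so an unequal effect of topotecan in the 2 genotypes was not detected for this gene.

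Phlda3, which encodes a pleckstrin-homology protein that opposes AKT, was at 95.4, 44.3 and 49.5 CPM in WT-Veh, 124, 97.3 and 77.9 CPM in WT-Topot, 95.4, 76 and 80.2 CPM in Top1 cKO-Veh, and 219, 126 and 174 CPM in Top1 cKO-Topot. Top1 cKO-Topot lay above the other libraries, which is how it came to be listed, while the other groups overlapped. In WT-Topot against WT-Veh its log2 fold change of 0.65 (SE 0.256) was called with the block (edgeR adjusted p = 0.000288) and not without (0.216), and WT-Topot exceeded WT-Veh in each replicate number. Leaving out WT-Veh replicate 2 gave the lowest value among single-library omissions, 0.44, and leaving out WT-Veh replicate 1 the highest, 1.09.

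Perp encodes a membrane protein of desmosomes that takes part in p53-dependent apoptosis. It was at 10.8, 6.57 and 15.6 CPM in WT-Veh, 20.1, 16.3 and 26.6 CPM in WT-Topot, 11.7, 9.16 and 13 CPM in Top1 cKO-Veh, and 37, 18.3 and 22.7 CPM in Top1 cKO-Topot. Both topotecan groups lay above both vehicle groups. In WT cells the log2 fold change was 0.95 (SE 0.337), called with the block (edgeR adjusted p = 0.00354) and not without (0.148), and the genotypes did not differ detectably under topotecan (0.31, SE 0.291, adjusted p = 0.868).

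Zmat3, a zinc-finger regulator of splicing and the gene with the exact element, was at 309, 377 and 255 CPM in WT-Veh, 299, 360 and 282 CPM in WT-Topot, 389, 479 and 355 CPM in Top1 cKO-Veh, and 558, 605 and 427 CPM in Top1 cKO-Topot. The log2 fold change was 0.00 (SE 0.183, edgeR adjusted p = 1) in WT-Topot against WT-Veh, and 0.75 (SE 0.167, adjusted p = 0.00667) in Top1 cKO-Topot against WT-Topot. The latter call was lost without WT-Topot replicate 1 or 3 or Top1 cKO-Topot replicate 1 or 2 (adjusted p 0.0103, 0.0226, 0.0143 and 0.0455), when low counts were filtered (adjusted p = 0.0125) and in the fit over all 12 libraries (adjusted p = 0.018), and the log2 fold change of 0.38 (SE 0.188) in Top1 cKO-Veh against WT-Veh was called only with the block (adjusted p = 0.00879, against 0.615).

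Pmaip1 encodes NOXA, a BH3-only protein that neutralises MCL1. It was at 43.6, 33.7 and 18.4 CPM in WT-Veh, 38.2, 55.5 and 24.4 CPM in WT-Topot, 38.7, 35.3 and 26.6 CPM in Top1 cKO-Veh, and 90.4, 63.1 and 59.9 CPM in Top1 cKO-Topot. As for Cdkn1a, only the last group stood above the rest, with a log2 fold change against WT-Topot of 0.84 (SE 0.247) that was called with the block (edgeR adjusted p = 0.000198) and not without (0.048). Aen, an apoptosis-enhancing nuclease, was at 62.6, 44.7 and 47.2 CPM in WT-Veh, 62.7, 53 and 43.3 CPM in WT-Topot, 54.4, 59.1 and 57.6 CPM in Top1 cKO-Veh, and 101, 73.1 and 84.4 CPM in Top1 cKO-Topot. It had the same order, and its log2 fold change against WT-Topot of 0.69 (SE 0.203) was likewise called with the block alone (adjusted p = 0.000477, against 0.0465).

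The other BCL2-family members on the list moved less. Bax, the pore-forming effector of the mitochondrial pathway, was at 29.3, 16.2 and 25.3 CPM in WT-Veh, 26.8, 19.7 and 31.3 CPM in WT-Topot, 28.5, 22.4 and 35.1 CPM in Top1 cKO-Veh, and 45.4, 30.2 and 45.9 CPM in Top1 cKO-Topot. Its log2 fold change of 0.64 (SE 0.25) in Top1 cKO-Topot against WT-Topot missed the threshold with the block (edgeR adjusted p = 0.0132) and without (0.18). Bbc3, which encodes PUMA, a principal BH3-only mediator of p53-dependent death in neurons, ranged from 22.3 to 53 CPM and was called in no comparison, with a log2 fold change of 0.14 (SE 0.262, edgeR adjusted p = 1) in WT-Topot against WT-Veh.

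Ei24, an endoplasmic reticulum protein, was at 168, 139 and 160 CPM in WT-Veh, 239, 189 and 200 CPM in WT-Topot, 162, 147 and 163 CPM in Top1 cKO-Veh, and 209, 187 and 237 CPM in Top1 cKO-Topot. Both topotecan groups lay above both vehicle groups, yet the log2 fold change of 0.43 (SE 0.179) in WT cells missed the threshold with the block (edgeR adjusted p = 0.0119) and without (0.26). The death receptors Fas and Tnfrsf10b were low (1.14 to 11.3 and 1.15 to 9.16 CPM), the receptor Eda2r lay between 14.5 and 30.9 CPM, and Triap1, an inhibitor of apoptosis, between 27.6 and 59.6 CPM, and none of these 4 was called.

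Gdf15, a secreted stress cytokine and a strong p53 target in other cells, was called in no comparison. It was at 8.19, 1.75 and 2.3 CPM in WT-Veh, 0.67, 0.572 and 0.856 CPM in WT-Topot, 3.91, 2.29 and 3.51 CPM in Top1 cKO-Veh, and 1.59, 1.66 and 1.75 CPM in Top1 cKO-Topot. The WT-Topot libraries together held 6 counts and the WT-Veh libraries 36, a ratio of 0.149 after scaling (95% counting interval 0.0511 to 0.356, which covers counting error only), and the edgeR adjusted p of 0.0502 missed the threshold.

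Among the repair and redox genes, Rrm2b and Ddb2 were lower in Top1 cKO-Topot than in WT-Topot. Rrm2b encodes the p53-inducible small subunit of ribonucleotide reductase, which supplies deoxynucleotides to cells that do not divide. It was at 70.2, 76.3 and 77.2 CPM in WT-Veh, 92.2, 98.7 and 86.5 CPM in WT-Topot, 57.5, 68 and 66.6 CPM in Top1 cKO-Veh, and 48.2, 60.4 and 55.1 CPM in Top1 cKO-Topot. WT-Topot stood above every other library. The log2 fold change in Top1 cKO-Topot against WT-Topot was -0.76 (SE 0.189), called with the block (edgeR adjusted p = 6.67e-05) and not without (0.0154), and in WT-Topot against WT-Veh it was 0.32 (SE 0.185, adjusted p = 0.554).

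Ddb2 encodes the damage-recognition subunit of the UV-damage-binding complex. It was at 29.8, 26.3 and 21.9 CPM in WT-Veh, 30.8, 35.5 and 31.7 CPM in WT-Topot, 28.9, 29.3 and 21.5 CPM in Top1 cKO-Veh, and 18.3, 24.2 and 17 CPM in Top1 cKO-Topot. WT-Topot lay above the other groups, and Top1 cKO-Topot wholly below WT-Topot with a log2 fold change of -0.71 (SE 0.249), called with the block (edgeR adjusted p = 0.00957) and not without (0.115).

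Sesn1 encodes sestrin 1, an antioxidant and growth-restraining stress protein. It was at 47.1, 42.1 and 53 CPM in WT-Veh, 63.7, 78.4 and 69.4 CPM in WT-Topot, 61, 62.5 and 56.6 CPM in Top1 cKO-Veh, and 51.8, 71.4 and 56 CPM in Top1 cKO-Topot. WT-Topot lay wholly above WT-Veh and Top1 cKO-Veh, with a log2 fold change against WT-Veh of 0.58 (SE 0.202) called with the block (edgeR adjusted p = 0.00897) and not without (0.135). Top1 cKO-Veh also lay wholly above WT-Veh, with a log2 fold change of 0.35 (SE 0.206). That difference was called neither with the block (edgeR adjusted p = 0.232) nor without (0.766). The translesion polymerase gene Polk, the nuclease gene Ercc5 and the damage-sensor gene Xpc, with ranges of 13.7 to 24, 19 to 37.2 and 5.76 to 24 CPM, were called in no comparison.

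By replicate number, more members were higher than lower with topotecan in WT cells. On the log2(CPM + 1) scale, 15 members were higher and 3 lower in all 3 replicate numbers of WT-Topot against WT-Veh, beside 27% and 24.1% of all genes. In Top1 cKO-Topot against Top1 cKO-Veh 17 were higher and 4 lower, beside 18.5% and 20.7%. The choice of the list used that comparison, so its counts are a description only, and the 17 include Cdkn1a and Phlda3. The share of members with one sign in all 3 replicate numbers of WT cells, 56.2%, was near the 51.1% of all genes. In Top1 cKO-Veh against WT-Veh there were 12 higher and 3 lower (23.7% and 22.7% of all genes), and in Top1 cKO-Topot against WT-Topot 17 higher and 6 lower (25.3% and 27.1%). The 17 higher members between the topotecan groups also include Cdkn1a and Phlda3, which say nothing further there. Ccng1, Trp53inp1, Perp, Apaf1, Phlda3, Ei24 and Mdm2 were among those higher with topotecan in every replicate number of both genotypes. Rrm2b and Ddb2 had opposite signs in the 2 genotypes: with topotecan Rrm2b changed by 0.39, 0.37 and 0.16 in WT and by -0.25, -0.17 and -0.27 in Top1 cKO cells, and Ddb2 by 0.05, 0.42 and 0.51 and by -0.63, -0.26 and -0.32. Neither interaction passed the test (adjusted p = 0.542 for both with edgeR, and 0.114 and 0.132 with the block).

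The size of the difference varied with the replicate number in Top1 cKO cells. With topotecan, Cdkn1a differed from vehicle by 1.27, 0.49 and 1.75 there, Btg2 by 0.62, 0.18 and 1.43, and Psrc1 by 1.13, -0.14 and 2.23, so that replicate 2 had the smallest difference for all 3 arrest genes. In WT cells the same 3 genes differed by 0.28, -0.46 and 0.45, by 0.39, 0.28 and 0.13, and by 0.64, 1.56 and 0.75. Top1 itself was somewhat higher in Top1 cKO-Topot replicate 2 (37.5 CPM) than in replicates 1 and 3 (29.1 and 28.4 CPM). Replicate 2 also had the highest Top1 level in WT-Veh (163 CPM), WT-Topot (140 CPM) and Top1 cKO-Veh (44 CPM). The part of Top1 in these differences was not tested.

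**Figure D4:**
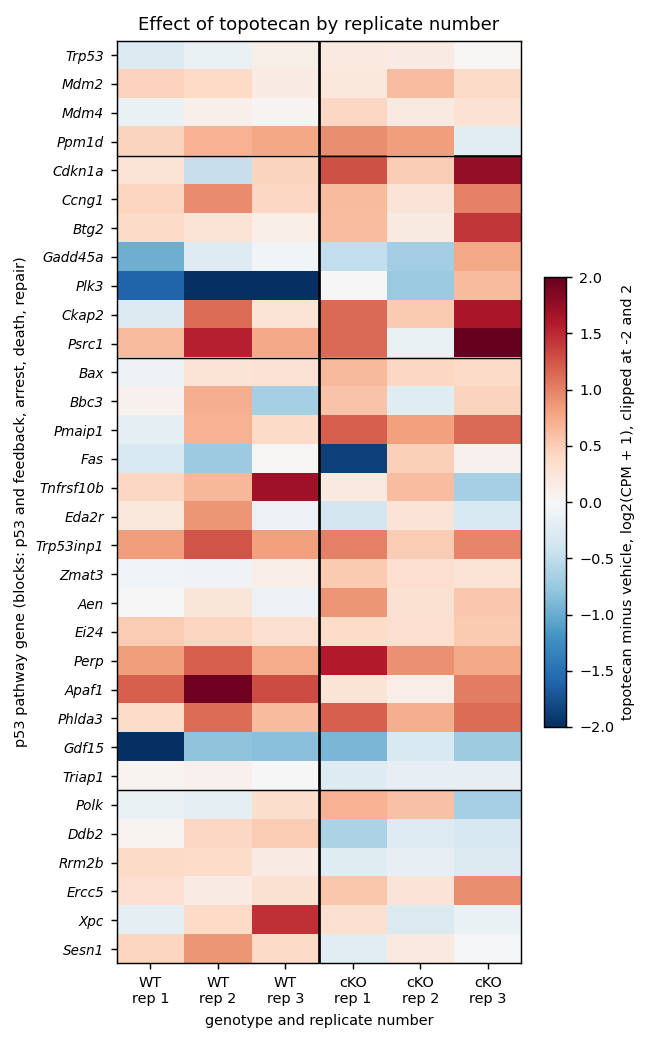
Topotecan minus vehicle in log2(CPM + 1), as colour from -2 to 2, for the 32 members (rows, in blocks by class) in each replicate number of WT and Top1 cKO cells (columns). Plk3 is lower in all 3 WT columns (-1.6, -1.99 and -2.29) and Apaf1 higher (1.2, 1.94 and 1.3), Cdkn1a is highest in Top1 cKO replicates 1 and 3, and Rrm2b and Ddb2 change sign between the genotypes.

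The comparisons behind the choice of the list follow as a description, and since the choice used them their counts are no test of the members. In Top1 cKO-Topot against Top1 cKO-Veh, edgeR called 0 members, beside 0% of all genes higher and 0.0146% lower, with 14 members at an unadjusted p under 0.05, all higher (2.54% of all genes higher and 4.31% lower), and 3 and 2 members called by DESeq2 and by edgeR's exact test. With the block 12 were called higher and 0 lower (10 and 0 of 30 without Cdkn1a and Phlda3), beside 1.49% and 3.02%. The 14 members at an unadjusted p under 0.05 also include these 2 genes. The log2 fold change was 1.19 (SE 0.235) for Cdkn1a, 1.05 (SE 0.207) for Phlda3, 1.23 (SE 0.319) for Perp, 1.09 (SE 0.231) for Pmaip1 and 0.44 (SE 0.201) for Mdm2. The median was 0.41 over the list and 0.34 without Cdkn1a and Phlda3. In Top1 cKO-Topot against WT-Veh, 5 members passed the threshold as higher and 0 as lower (4 and 0 of 30 without Cdkn1a and Phlda3), beside 0.824% and 2.11% of all genes. With the block 14 were higher and 0 lower (12 and 0 of 30 without them), beside 5.82% and 7%. The median was 0.50 in that comparison, and the count of 5 became 3 without WT-Veh replicate 2 or Top1 cKO-Topot replicate 1, 8 without WT-Veh replicate 1 or 3, and 9 without Top1 cKO-Topot replicate 3.

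Beyond the 32 members, 45 other p53 targets and 19 regulators of p53 were read as lists. Of the 45 targets, 1 was called higher and 0 lower in WT-Topot against WT-Veh, with a median log2 fold change of 0.03. This was Rprm, whose product Reprimo arrests the cell cycle, with a log2 fold change of 1.57 (SE 0.303, edgeR adjusted p = 0.00282). Between the topotecan groups, in Top1 cKO against WT cells, 1 was called higher and 1 lower, with a median of -0.08: the immediate-early gene Ier5 (1.36, SE 0.292, edgeR adjusted p = 0.00522) and the calcium channel gene Orai3 (-1.34, SE 0.28, edgeR adjusted p = 0.00415). In Top1 cKO-Veh against WT-Veh none of the 45 was called by edgeR without the block, with 4 higher and 3 lower at an unadjusted p under 0.05, and none for the interaction, with 3 and 3 (shares of all genes as above).

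With the block, 5 of the 45 targets were called higher and 3 lower in WT-Topot against WT-Veh, beside 5.62% and 8.71% of all genes. In Top1 cKO-Veh against WT-Veh 5 and 3 were called, beside 4.53% and 5.15%. Between the topotecan groups, in Top1 cKO against WT cells, there were 3 and 3, beside 8.02% and 7.08%. For the interaction there were 3 and 1, beside 4.24% and 2.66%. Rprm rose in both single conditions, by 1.68 (SE 0.155, edgeR adjusted p = 4.43e-17) in WT-Topot and by 1.62 (SE 0.147, adjusted p = 3.36e-25) in Top1 cKO-Veh, and its interaction was -1.68 (SE 0.23, adjusted p = 5.76e-07). The median of the 45 in WT-Topot against WT-Veh was 0.05 in that fit, where that of the 32 members was 0.31. Of the 19 regulators, edgeR called none in any of the 4 tested comparisons without the block; with it, the kinase gene Hipk2 (-1.03, SE 0.296, adjusted p = 0.00855) and the ubiquitin ligase gene Rfwd2 (-0.78, SE 0.196, adjusted p = 0.00205) fell in WT-Topot against WT-Veh, and the acetyltransferase gene Crebbp was higher in Top1 cKO-Topot against WT-Topot (0.92, SE 0.185, adjusted p = 0.000181).

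Among the 9507 genes averaging 10 CPM or more, those whose log2(CPM + 1) over the 12 libraries followed Cdkn1a most closely were Gatad2a (Pearson r = 0.901), Iqck (0.891), Pmaip1 (0.878), Ampd2 (0.875) and Frmd6 (0.873). Within the list Ckap2 (0.854), Aen (0.818) and Btg2 (0.81) came next after Pmaip1, whereas Rrm2b had an r of -0.613, Ddb2 of -0.435, Mdm2 of 0.345 and Apaf1 of 0.112. These values describe 12 libraries that share groups and replicate numbers. They include the Top1 cKO-Topot libraries, whose high Cdkn1a level prompted the list, so they are a description only.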

How the data were processed

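Polyadenylated RNA of 12 cultures was sequenced in pairs of 50 bp reads. Per the labels and the study's methods, the authors aligned reads to mm9 with TopHat, removed ribosomal reads and deposited raw counts over RefSeq exons, summed by gene symbol. The counter, its strand setting and software versions are not given in the sources used here, so reads of overlapping or antisense genes cannot be told apart. From the deposited counts, edgeR 4.0.16 (R 4.3.3, TMM factors, quasi-likelihood test, no filter) was fitted to the 6 libraries of each comparison, or to all 12 for the interaction, with Benjamini-Hochberg adjustment over 23893 genes, of which 5182 held no count, and an FDR of 0.01. The script was tested on simulated data. For WT-Topot against WT-Veh, the fit without the block recovered 33% of changes of 1 on the log2 scale. With simulated replicate effects it recovered 4%, where the block recovered 36%. The simulated spread was estimated by group without a block, so it already held replicate variation before those effects were added. Changed genes were drawn from rows with higher counts. The rates are therefore not those of these data, and poorly counted members are not covered. For the interaction, simulated without replicate effects, it recovered 9%. Few or no calls without the block therefore do not show that members were unchanged. Alternatives were a replicate block, DESeq2 1.42.0, other scaling, filters and thresholds, and leaving out each library. SE is the log2 fold change divided by the square root of the test's F.

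Whether replicate numbers pair libraries was checked on deviations from group means over 13720 genes: all 18 same-number pairs correlated at 0.261 to 0.485 and the 36 other pairs at -0.384 to -0.0494, so blocked values are printed where they change a call. The numbers come from the sample titles, which do not say what they share. The study describes cultures as replicates; where they came from one preparation, p-values measure the spread between dishes.

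Members and lists were chosen with earlier results of these data known. Members past the threshold in any comparison, with or without the block, and Trp53, Mdm2, Cdkn1a and Phlda3 are given by library; of the other lists at most 4 called genes a comparison. Positions come from GENCODE vM1 on NCBIM37 (mm9), which matched all 32 symbols; pyfaidx read the elements. CPM per exon kb divides by the union of annotated exons.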

Additional observations from a re-analysis of the deposited data

Results flagged for a closer look

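With the replicate block, the interaction for Plk3 was 1.96 on the log2 scale (SE 0.412, edgeR adjusted p = 0.000844). It was not called without the block (adjusted p = 0.137). For Apaf1 the interaction was -1.06 (SE 0.271), likewise called with the block (edgeR adjusted p = 0.00811) and not without (0.196). For each gene the block was the only 1 of 16 alternatives that gave a call. Without Cdkn1a and Phlda3, the block called 1 of 30 members higher and 1 lower, beside 4.24% and 2.66% of all genes. For Ddb2 and Rrm2b the sign of the topotecan effect was opposite in the 2 genotypes in all 3 replicate numbers, which by itself is not a test; the interaction was -0.74 (SE 0.331) for Ddb2 and -0.54 (SE 0.243) for Rrm2b, and edgeR's adjusted p was 0.542 for both.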

How the results depend on the processing

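The replicate block (paired libraries) changed the counts most: 8 members were called in WT-Topot against WT-Veh (3 without it), 5 in Top1 cKO-Veh against WT-Veh (0), 13 in Top1 cKO-Topot against WT-Topot (4), 3 for the interaction (0), 14 in Top1 cKO-Topot against WT-Veh (5), and 12 in Top1 cKO-Topot against Top1 cKO-Veh (0). For Top1 cKO-Topot against WT-Topot, filtering low counts or fitting all 12 libraries left 1 member each, and an FDR of 0.05 gave 8. For Top1 cKO-Topot against Top1 cKO-Veh, DESeq2 called 3 members and the exact test 2. For Top1 cKO-Topot against WT-Veh, DESeq2 called 9, the filter left 2, and an FDR of 0.05 gave 10. Leaving out each library in turn gave 1 to 5 members in WT-Topot against WT-Veh, 0 in Top1 cKO-Veh against WT-Veh, 3 to 6 in Top1 cKO-Topot against WT-Topot, 0 for the interaction, 3 to 9 in Top1 cKO-Topot against WT-Veh, and 0 to 2 in Top1 cKO-Topot against Top1 cKO-Veh. The cause of these shifts was not tested. The share of all genes called rose with the block as well, for example from 1.19% to 5.62% higher in WT-Topot against WT-Veh. For the other settings no share of all genes was taken, so their counts describe the list alone. All counts in this paragraph are over the 32 members, Cdkn1a and Phlda3 included. No member called in a comparison, without or with the replicate block, reversed its sign there under another setting. Scaling by relative log expression moved the median of all genes by less than 0.05 and no count of calls. Low counts limit, among others, Trp53, Gdf15, Fas, Tnfrsf10b, Ckap2 and Gadd45a. They also limit Plk3, with 26, 17 and 5 counts in the WT-Topot libraries, and Psrc1, with 8 and 9 counts in WT-Veh replicates 2 and 3.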
